A study of Homo sapiens with 25 samples.

Results

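Sites of tagged FOXD2 were set against binding sites of the histone methyltransferase MLL4 in HCT116, a human cell line established from a colorectal carcinoma. Tagged FOXD2 was mapped by chromatin immunoprecipitation with sequencing (ChIP-seq) in cells given the plasmid pcDNA3.1-FOXD2-3xflag-6xhis, with 2 libraries for an antibody to the 6xHis tag and 2 for an antibody to FLAG. MLL4 was mapped in other cells of the same line, stably transduced with the lentiviral vector pSin-FOXD2 and selected with puromycin (FOXD2 cells, 2 libraries), or with the empty pSin vector (control cells, 2 libraries). H3K4me1 and H3K27ac were mapped in 2 libraries and H3K4me3 in 1 library of each lentiviral group. Of the 25 libraries of the series, 18 had a list of peaks and 7 were inputs not used here. A region held by all 4 tag lists is called a tag site, and there were 5399 of them among the 91522 regions of any tag list. Of these, 355 also held a peak of both MLL4 lists of FOXD2 cells and are called co-occupied, 709 held a peak of 1 MLL4 list and 4335 held none. The MLL4 lists had 24193 regions, of which 2946 were in both lists (MLL4 sites), and 1487 of these held no peak of any tag list.

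FOXD2 is a forkhead transcription factor, a family whose members contact DNA through a winged-helix domain and favour a short core, TGTTTAC or its complement GTAAACA. MLL4, encoded by KMT2D, works in a complex with KDM6A, an H3K27 demethylase, and PAXIP1, and is known for placing H3K4me1 at enhancers. H3K4me3 marks active gene starts, while H3K4me1 without H3K4me3 is typical of enhancers, and H3K27ac marks active members of both.

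The lists differed in length and make-up. The 6xHis lists held 48194 and 26942 peaks and the FLAG lists 38472 and 31424. MLL4 list 1 of FOXD2 cells held 22493 peaks and list 2 held 4676, against 16046 and 13571 in control cells. FLAG list 2 stood apart from the other tag lists, with 25.4% of its peaks over H3K4me3 against 10.4% to 15.3%. MLL4 list 2 stood apart from list 1 as well: 95.6% of its peaks lay over H3K4me1 in both lists against 52.2%, and 8.34% of its summits lay within 1 kb of a gene start against 19.3%. Read depth is unknown, so a missing peak gives no limit of detection. No tag library from cells without the tag was analysed here, so tag binding and a background that the tag lists share cannot be told apart. Of the epithelial and colon markers with a known start, 6 of 7 carried H3K4me3 at it, as did 0 of 2 blood, 1 of 1 fibroblast or endothelial and 1 of 3 neural markers, and 9953 of all 15811 genes with a known start.

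The sequences below are gene starts at which tag and MLL4 summits fell in the same 300 bp (250 before the start to 50 after it), from RefSeq, GRCh38.p14. Of the 15811 protein-coding genes with such a window, 214 had both kinds of summit in it. The first 4 belong to co-occupied sites and were chosen after their values were seen, because both MLL4 lists and at least 2 tag lists had a summit inside the window. Capitals mark the stretch from the outermost summit on one side to the outermost on the other.
CHURC1-FNTB: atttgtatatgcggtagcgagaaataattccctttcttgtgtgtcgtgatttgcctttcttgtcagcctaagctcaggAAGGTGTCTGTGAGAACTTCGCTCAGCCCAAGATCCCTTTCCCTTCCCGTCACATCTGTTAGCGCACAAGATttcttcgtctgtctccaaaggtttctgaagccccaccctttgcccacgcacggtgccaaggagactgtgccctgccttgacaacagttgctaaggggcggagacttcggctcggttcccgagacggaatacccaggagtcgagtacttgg
LRP10: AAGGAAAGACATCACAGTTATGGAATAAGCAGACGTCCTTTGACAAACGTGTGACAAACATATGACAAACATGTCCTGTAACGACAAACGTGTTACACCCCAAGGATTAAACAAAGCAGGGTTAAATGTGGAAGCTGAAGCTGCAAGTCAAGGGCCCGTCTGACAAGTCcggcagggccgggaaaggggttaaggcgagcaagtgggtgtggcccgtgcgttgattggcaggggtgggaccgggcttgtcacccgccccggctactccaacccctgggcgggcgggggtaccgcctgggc
TTC39C: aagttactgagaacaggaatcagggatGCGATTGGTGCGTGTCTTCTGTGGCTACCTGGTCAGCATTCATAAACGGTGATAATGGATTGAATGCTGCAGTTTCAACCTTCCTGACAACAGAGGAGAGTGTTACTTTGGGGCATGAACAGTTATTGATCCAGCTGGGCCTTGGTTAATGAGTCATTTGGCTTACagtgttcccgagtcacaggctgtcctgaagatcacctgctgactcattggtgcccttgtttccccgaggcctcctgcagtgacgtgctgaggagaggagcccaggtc
YJU2B: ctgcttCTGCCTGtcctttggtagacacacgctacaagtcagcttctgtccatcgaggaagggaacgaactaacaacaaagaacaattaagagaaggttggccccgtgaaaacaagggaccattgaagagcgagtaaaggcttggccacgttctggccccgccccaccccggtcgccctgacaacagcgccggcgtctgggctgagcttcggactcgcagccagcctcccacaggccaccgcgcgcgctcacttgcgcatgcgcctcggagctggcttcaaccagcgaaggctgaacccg
At CHURC1-FNTB (chr14:64914111-64914410, + strand), a readthrough gene, the summits of all 4 tag lists and both MLL4 lists fell within 72 bp, from 172 to 101 bp before the start. At LRP10 (chr14:22871490-22871789, + strand), a lipoprotein receptor, 2 tag lists and both MLL4 lists had summits across 169 bp. At TTC39C (chr18:24113077-24113376, + strand), 3 tag lists and both MLL4 lists did so across 166 bp. At YJU2B (chr19:13731502-13731801, + strand), the summits of 6xHis 2, FLAG 1 and both MLL4 lists lay within 7 bp of each other. None of these 4 windows holds the forkhead core.

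The core was found in 4 of the 214 windows with both kinds of summit (1.87%) and in 414 of all 15811 (2.62%), counting either strand. By overlap of the site with the window, it was in 0 of 34 windows at co-occupied sites, 11 of 220 at partly co-occupied sites (5%) and 13 of 413 at tag sites without MLL4 (3.15%). It was in 1 of 113 windows at MLL4 sites without tag. A missing match says only that these letters are not in the window. The next 2 windows are shown because each holds the core, in capitals, beside a tag and an MLL4 summit.
SELENOP: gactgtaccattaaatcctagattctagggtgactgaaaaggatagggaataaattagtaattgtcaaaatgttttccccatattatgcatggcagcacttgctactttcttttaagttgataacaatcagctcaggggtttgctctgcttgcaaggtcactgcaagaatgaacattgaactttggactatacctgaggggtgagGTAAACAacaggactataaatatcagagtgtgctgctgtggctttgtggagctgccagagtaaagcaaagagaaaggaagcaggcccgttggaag
ODF2L: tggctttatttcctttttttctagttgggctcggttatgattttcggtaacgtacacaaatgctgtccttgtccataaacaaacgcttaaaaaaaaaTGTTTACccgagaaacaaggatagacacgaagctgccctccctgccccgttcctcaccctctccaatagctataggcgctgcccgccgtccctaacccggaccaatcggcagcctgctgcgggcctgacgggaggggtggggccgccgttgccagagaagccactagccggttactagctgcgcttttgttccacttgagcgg
At SELENOP (chr5:42811843-42812142, - strand), which encodes a selenium transport protein, the core starts 45 bp before the gene start, and the summits of FLAG 1 and MLL4 2 lie 44 and 41 bp before it, inside the core. At ODF2L (chr1:86396274-86396573, - strand) the core starts 153 bp before the gene start, with the summits of 6xHis 2, FLAG 2 and MLL4 1 at 171, 70 and 25 bp before it. Neither window belongs to a co-occupied site, since fewer lists held a peak there.

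Co-occupied sites were a small share of the tag sites. They made up 6.58% (95% Wilson interval 5.94 to 7.27), against a background of 1.56% of all tag regions that held both MLL4 lists. A further 13.1% of tag sites held 1 of the 2 MLL4 lists, 581 of them list 1 and 128 of them list 2, so that 1064 (19.7%) held at least 1, against 5.53% of all tag regions. The other 80.3% held no MLL4 peak of FOXD2 cells. From the side of MLL4, 306 of 2946 MLL4 sites (10.4%) held a peak of all 4 tag lists, against 3.10% of all MLL4 regions. The counts of 306 and 355 differ because the first merges MLL4 peaks and the second tag peaks. Another 1153 MLL4 sites (39.1%) were held by 1 to 3 tag lists, and 50.5% by none, against 79.1% of all MLL4 regions. Intervals cover the counting of regions only.

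MLL4 was found more often the more tag lists held a region. Both MLL4 lists held 0.87% of the 60548 regions of a single tag list, 1.62% of those of 2 lists, 3.18% of those of 3 lists and 6.58% of those of all 4. The median width rose along with it, from 393 to 614, 838 and 1214 bp. The share of regions with an H3K4me3 peak of FOXD2 cells rose too, from 7.77% to 12.8%, 21.2% and 34.0%. Its part in the rise of MLL4 was not tested. A measure that does not depend on width, an MLL4 summit within 250 bp of the tag summit, rose as well. For MLL4 1 it went from 1.82% at regions of 1 list to 7.95% at tag sites, and for MLL4 2 from 0.92% to 5.04%. The control lists, from cells without added FOXD2, rose from 2.16% to 10.97% and from 2.11% to 10.5%. The rise was thus present in each of the 4 MLL4 lists.

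**Figure D1:**
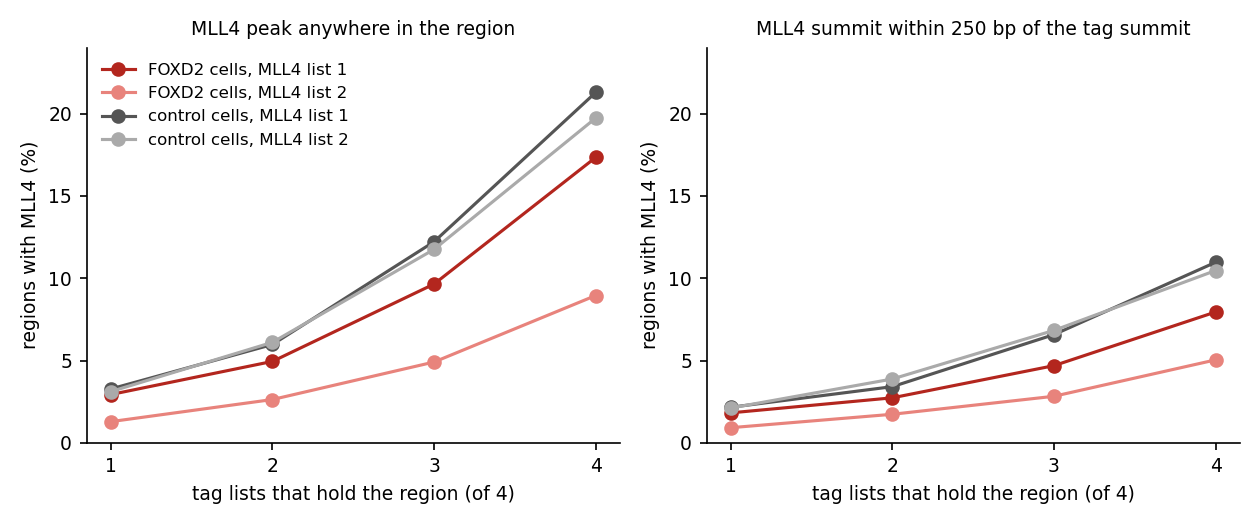
Percent of merged tag regions with MLL4 (vertical axis) by the number of tag lists that hold the region (horizontal axis), 1 line per MLL4 list; left, an MLL4 peak anywhere in the region; right, an MLL4 summit within 250 bp of the region's tag summit. All 4 lines rise from 1 to 4 tag lists, and at 4 tag lists the control lists stand at 21.3% and 19.7% on the left, above the FOXD2 lists at 17.3% and 8.95%.

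Tag sites with an MLL4 peak of FOXD2 cells mostly held a peak of at least 1 control MLL4 list as well. MLL4 lay at 17.3% and 8.95% of tag sites in the lists of FOXD2 cells and at 21.3% and 19.7% in those of control cells, a mean of 13.1% ± 5.9 against 20.5% ± 1.1 (SD, n = 2 each). The groups did not overlap. At regions of a single tag list they stood in the same order, at 2.93% and 1.29% against 3.28% and 3.12%. The difference of -7.36 percentage points had p = 0.333 by a two-sided exact permutation test, which cannot go lower with 2 lists against 2. At equal list length the difference was -0.73 points (p = 0.667 by the same exact permutation test), and there the groups overlapped. It was -11.6 points without MLL4 1 and -3.17 without MLL4 2. Of the 355 co-occupied sites, 287 (80.8%) held both control MLL4 lists, 47 held 1 and 21 held neither. Both control lists were also found at 70.1% of MLL4 sites without tag. Of the 709 partly co-occupied sites, 280 (39.5%) held both control lists, 198 held 1 and 231 (32.6%) held neither. Conversely, 232 tag sites (4.30%) held both control lists and neither list of FOXD2 cells, against 21 (0.39%) with the reverse. These counts were not recomputed at equal list length. MLL4 2 of FOXD2 cells held 4676 peaks, against 16046 and 13571 in the control lists. Over all tag regions, 3.68% held both control lists and 1.56% both lists of FOXD2 cells, whatever their other MLL4 peaks. The labels do not say that libraries were separate cultures, so this and the other exact tests measure the spread between libraries, which may be technical.

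Tag peaks over MLL4 carried H3K4me3 more often than the others. H3K4me3 lay at 57.6%, 58.9%, 54.2% and 70.6% of the peaks of 6xHis 1, 6xHis 2, FLAG 1 and FLAG 2 that overlapped both MLL4 lists. At peaks that overlapped neither, the shares were 8.31%, 11.9%, 8.30% and 18.4%, and over all tag regions the share was 11.5%. The lowest value with MLL4 was well above the highest without it. The difference was 48.6 ± 2.8 percentage points (SD, n = 4), higher in 4 of 4 lists (exact sign-flip permutation p = 0.125, two-sided, the smallest that 4 lists allow). With the H3K4me3 list of control cells it was 55.6 points. Tag peaks over MLL4 were also wider, by 150 ± 19 bp in the median (SD, n = 4, exact sign-flip permutation p = 0.125), and the part of width in this difference was not tested. When every peak was set to 200 bp around its summit, the difference in H3K4me3 was 35.7 points.

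Seen from the marks, MLL4 fell on marked tag peaks. Both MLL4 lists held 7.06% to 9.77% of the tag peaks over H3K4me3, over the 4 tag lists. They held 2.57% to 3.46% of those with H3K4me1 in both lists and no H3K4me3. Of the peaks with none of the 3 marks, between 11331 and 27222 per tag list, 0 overlapped both MLL4 lists, and at most 0.229% overlapped either. Of all 2946 MLL4 sites, 1 lacked a mark, as did 13.6% of all MLL4 regions. The 0 was therefore nearly set by the MLL4 lists themselves and says little about the tag peaks. Control MLL4 showed the same order, with both control lists at 18.2% to 24.3%, 6.08% to 7.56% and at most 0.014%.

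**Figure D2:**
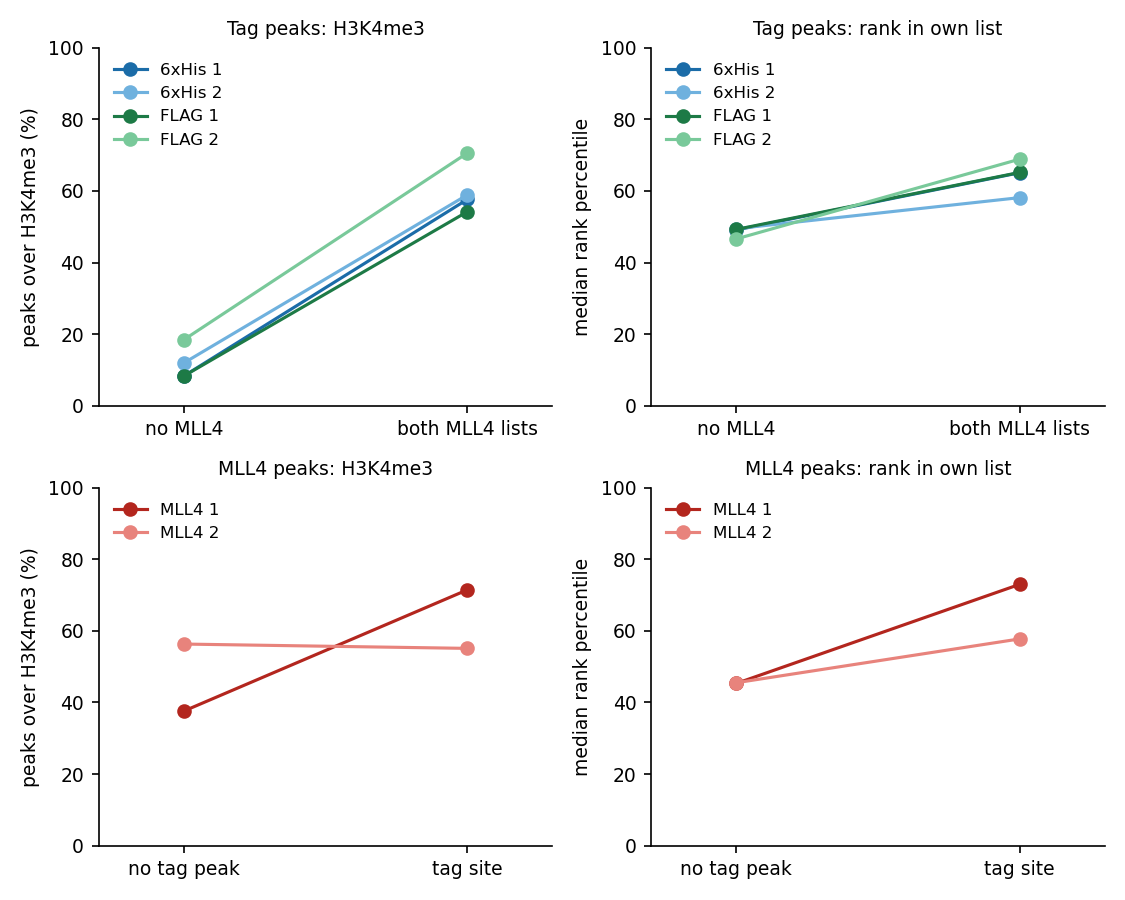
Each line is 1 list. Top, tag peaks that overlap neither or both MLL4 lists; bottom, MLL4 peaks that overlap no tag peak or a tag site; left, percent of peaks over H3K4me3 of FOXD2 cells; right, median rank percentile of −log10 q within the list (100 is the strongest). All 4 tag lists rise in both top panels, while the H3K4me3 share of MLL4 2 goes from 56.3% to 55.1%.

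The same held at the level of sites. Co-occupied sites carried H3K4me3 at 227 of 355 (63.9%, 95% Wilson interval 58.8 to 68.8), and the other 128 carried H3K4me1 in both lists without H3K4me3, so that 0 lacked a mark. Partly co-occupied sites carried H3K4me3 at 72.1%, with 78.0% where MLL4 1 alone was present and 45.3% where MLL4 2 alone was. Tag sites without MLL4 carried H3K4me3 at 1096 of 4335 (25.3%), H3K4me1 in both lists without H3K4me3 at 37.3%, and none of the 3 marks at 1226 (28.3%). Over all tag regions these shares were 11.5%, 23.4% and 57.6%, so tag sites without MLL4 were marked more often than tag regions in general. MLL4 sites without tag carried H3K4me3 at 74.6%, those held by 1 to 3 tag lists at 70.1% and those held by all 4 at 62.7%, against 71.6% of all MLL4 sites and 43.5% of all MLL4 regions. In the 1 H3K4me3 list of FOXD2 cells, the share at MLL4 sites was thus lower where tag lists were present. With the H3K4me3 list of control cells it was 72.6%, 71.4% and 74.2% in the same order of classes, without such a fall. Of the 1487 MLL4 sites without tag, 1 lacked a mark. H3K27ac lay at 98.0% and 91.3% of co-occupied sites in the 2 lists of FOXD2 cells and at 42.6% and 38.7% of tag sites without MLL4. Over all tag regions it lay at 20.4% and 18.9%. Median widths of co-occupied sites and tag sites without MLL4 were alike, at 1252 and 1187 bp, so width differs little between these classes. In a window of 500 bp around the strongest tag summit, H3K4me3 lay at 51.8% of co-occupied sites and 21.9% of tag sites without MLL4.

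**Figure D3:**
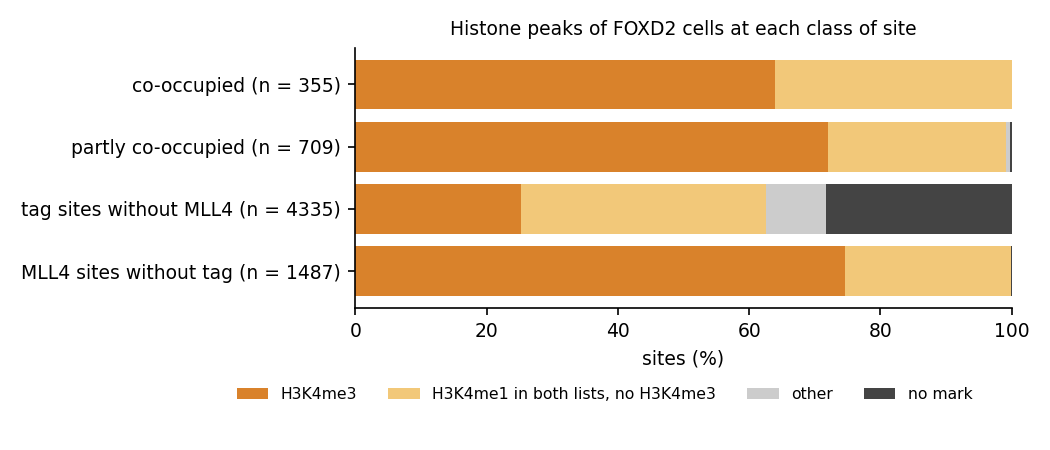
Horizontal bars show the percent of sites of each class by the histone peaks of FOXD2 cells they hold. Orange is H3K4me3, pale orange is H3K4me1 in both lists without H3K4me3, grey is any other combination and black is none of the 3 marks, which covers 28.3% of the tag sites without MLL4 and 0% of the co-occupied sites.

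Peaks present in both data sets ranked higher in their own lists. Within each tag list, peaks were ranked by −log10 q, with 100 the strongest. Tag peaks over both MLL4 lists had median ranks of 65.1, 58.1, 65.2 and 68.9 in 6xHis 1, 6xHis 2, FLAG 1 and FLAG 2, and those over neither had 49.1, 49.5, 49.2 and 46.6. The difference was 15.7 ± 5.6 (SD, n = 4), in the same direction in 4 of 4 lists (exact sign-flip permutation p = 0.125, two-sided). Among tag peaks over H3K4me3 alone, the median ranks with and without MLL4 were close, at 63.7 and 60.2, 56.5 and 58.1, 63.4 and 58.8, and 68.9 and 61.0 in the same order of lists, so that 6xHis 2 went the other way. Among tag peaks with H3K4me1 in both lists and no H3K4me3 they were 69.0 and 54.9, 59.2 and 52.3, 68.2 and 54.7, and 67.6 and 50.9. These values within a mark were not tested. MLL4 peaks at a tag site had median ranks of 73.0 and 57.7 in MLL4 1 and MLL4 2, against 45.3 and 45.5 for those with no tag peak. That difference was 20.0 ± 10.9 (SD, n = 2, exact sign-flip permutation p = 0.5, the smallest that 2 lists allow). For H3K4me3 the MLL4 lists went apart. In MLL4 1 the share rose from 37.6% without tag to 71.4% at tag sites, and in MLL4 2 it was 56.3% and 55.1% (mean difference 16.3 ± 24.8 points, n = 2, exact sign-flip permutation p = 1). The mean difference turned to -3.11 points at equal list length and to -4.68 with peaks of 200 bp.

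Rank in the tag lists and rank in the MLL4 lists were at most weakly related at the 355 co-occupied sites. Spearman's rank correlation of the −log10 q values, a description across sites that share libraries, was 0.21 to 0.44 between pairs of tag lists and 0.41 between the MLL4 lists. Between a tag list and an MLL4 list it was -0.02 to 0.17 over the 8 pairs, below the lowest tag pair in each case.

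The strongest tag and MLL4 summits of a co-occupied site were usually not at the same base. The median distance was 259 and 242 bp from 6xHis 1 to MLL4 1 and MLL4 2, 214 and 224 bp from 6xHis 2, 245 and 241 bp from FLAG 1, and 181 and 154 bp from FLAG 2. The mean of these 8 medians was 220 ± 36 bp (SD, 8 pairs that share lists). Summits of 2 tag lists at the same sites were 141 to 190 bp apart in the median, and those of the MLL4 lists 87 bp. Only the FLAG 2 pairs reached the range of the tag pairs. The share within 100 bp was 22.8% to 33.8% for tag to MLL4, 32.7% to 40.6% between tags and 54.6% between the MLL4 lists. With peaks set to 200 bp, which keeps only sites whose summits are close, the mean was 106 bp.

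**Figure D4:**
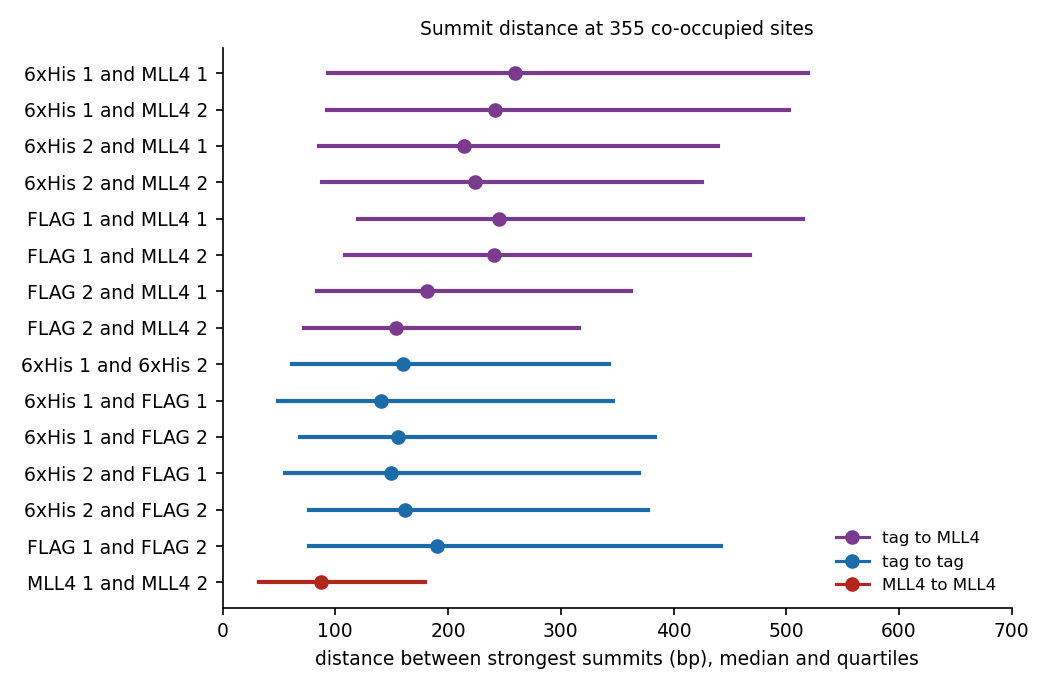
Distance in bp between the strongest summits of 2 lists at the 355 co-occupied sites, 1 row per pair of lists; points are medians and bars run between the quartiles. The MLL4 pair has the shortest median at 87 bp, the tag pairs lie at 141 to 190 bp and the tag to MLL4 pairs at 154 to 259 bp.

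Around gene starts, tag and MLL4 summits were placed differently. Among peaks over H3K4me3 within 2 kb of a start, the median distance of the summit from the start was 776, 662, 818 and 472 bp in 6xHis 1, 6xHis 2, FLAG 1 and FLAG 2. It was 272 and 444 bp in the MLL4 lists of FOXD2 cells and 291 and 332 bp in those of control cells. Tag summits fell on both sides of the start: between 30.0% (FLAG 2) and 47.5% (FLAG 1) lay 500 to 2000 bp downstream, where the 4 MLL4 lists had 14.8% to 17.1%. Within 250 bp of the start lay 15.4%, 20.1%, 9.61% and 30.6% of tag summits and 47.0% and 27.9% of MLL4 summits. H3K4me3 summits themselves lay mostly 0 to 500 bp downstream (67.3%). At the 47 co-occupied sites with all 6 summits within 2 kb of a start, the tag summits lay 531 to 807 bp from it in the median and the MLL4 summits 321 and 434 bp. At these sites 70.2% to 78.7% of the summits were upstream, in tag and MLL4 lists alike. These positions are a description without a test, and FLAG 2 lay closer to the MLL4 lists than the other 3 tag lists did.

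**Figure D5:**
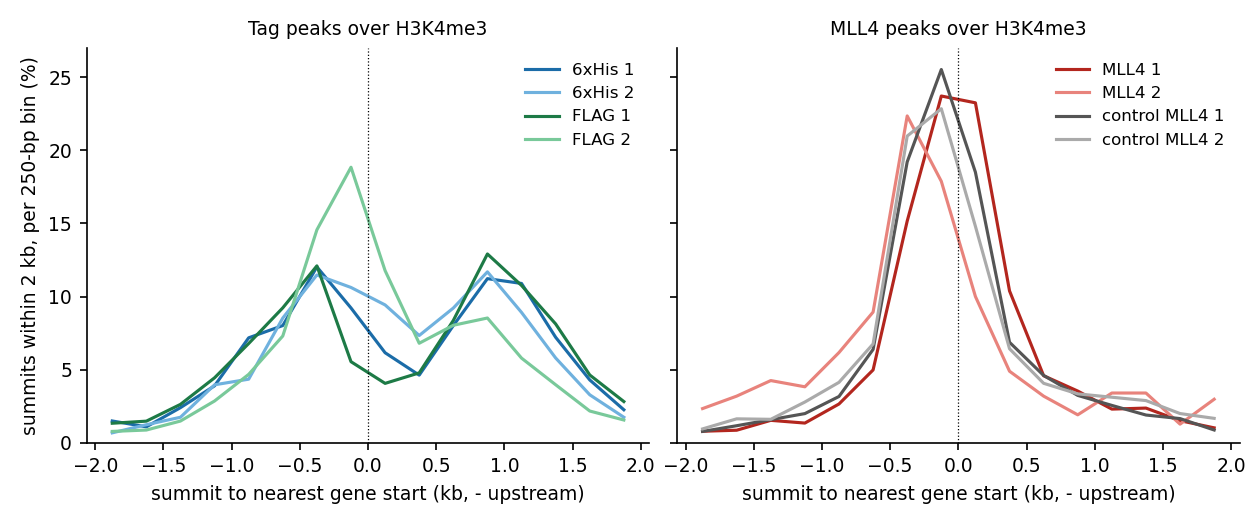
Percent of summits per 250-bp bin (vertical axis) by distance to the nearest gene start in kb (horizontal axis, negative is upstream), for peaks over H3K4me3 with a summit within 2 kb of a start, 1 line per list. The tag lists (left) have a rise on each side of the start, and the MLL4 lists (right) a single one at or just before it.

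Few co-occupied sites lay within 1 kb of a known gene start. Of co-occupied sites on chromosomes with known starts, 34 of 328 (10.4%) had a summit within 1 kb of one, against 10.5% of tag sites without MLL4 and 8.91% of MLL4 sites without tag. The share was 5.06% of all tag regions and 18.2% of all MLL4 regions. By the same starts, known for 15811 of 19970 genes, it was 39.9% of the H3K4me3 peaks of FOXD2 cells. Tag sites with MLL4 1 alone stood at 34.8% and those with MLL4 2 alone at 4.96%. Counted over peaks, 8.15% ± 3.44 of tag peaks with both MLL4 lists and 5.61% ± 2.52 of those with neither had a start within 1 kb. The difference was 2.54 ± 1.02 points (SD, n = 4, exact sign-flip permutation p = 0.125). It turned to -2.69 points when peaks below a −log10 q of 5 were dropped and to -0.13 points at equal list length, and it was 19.2 points without MLL4 2 and 0.48 without MLL4 1. The share at gene starts therefore depended on which MLL4 list was read.

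The strongest co-occupied site, by the sum of its ranks in the 6 lists, lay 0.11 kb from SPAG9, a scaffold of JNK signalling (hg38, chr17:51120979-51123027). The authors' fold enrichments there were 5.94, 5.35, 5.04 and 4.83 in 6xHis 1, 6xHis 2, FLAG 1 and FLAG 2 and 5.52 and 6.91 in MLL4 1 and MLL4 2. Its tag and MLL4 summits lay 20 to 94 bp apart, over H3K4me3. The site at CAVIN2, a protein of caveolae (chr2:191866332-191867896), had summits 27 to 150 bp apart, with no H3K4me3 and with H3K4me1 and H3K27ac in both lists. TCF7L2, a transcription factor that carries Wnt signals, held one inside the gene (chr10:113086466-113087928), with summits 41 to 189 bp apart and rank 15 among the peaks of FLAG 2. At CASP8, an initiator caspase (chr2:201257503-201259466), the distances were 244 to 540 bp.

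At other strong sites the strongest tag and MLL4 summits lay further apart, in all or some of the lists. At FAM222B (chr17:28807030-28810333) each tag summit was 970 to 1050 bp from the MLL4 summits, and at FOXL1, a forkhead factor 80.0 kb away, 781 to 1161 bp (chr16:86663451-86665660). The site near SCD, the stearoyl-CoA desaturase (chr10:100369634-100372883), had distances from 1 to 1037 bp depending on the list. The rest of the 10 strongest were nearest to ARHGAP27, to NEBL, an actin-binding protein 70.4 kb away, and to SEC14L1. Of these 10, 8 carried H3K4me3, and all 10 held both control MLL4 lists.

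In all, 310 genes were nearest to a co-occupied site within 100 kb (1.55% of 19970 protein-coding genes). RASSF3, a Ras-association protein, had 3 sites. Another 18 genes had 2 each, among them DUSP1, a MAP kinase phosphatase, ERRFI1, a feedback inhibitor of the EGF receptor, MACF1, a cytoskeletal crosslinker, and MICAL2, an actin-oxidising enzyme. Of the 355 sites 181 (51.0%) lay inside a gene, against 79.2% of the 4335 tag sites without MLL4 and 55.9% of the 1487 MLL4 sites without tag.

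Tag sites without MLL4 were spread over 2449 genes (12.3% of protein-coding genes), of which 772 had 2 or more. HNRNPC, which binds pre-mRNA, had 18 and no co-occupied site, GBF1, a Golgi exchange factor, 15, MED13, of the Mediator kinase module, 13, USP10, a deubiquitinase, 13, and EIF3A, of the translation initiation complex, 12. MDM2, the p53 ubiquitin ligase, also had 12. The strongest site was 8.20 kb from CPOX, of heme synthesis (chr3:98601813-98602985), with folds of 8.44, 10.3, 6.07 and 7.60 in 6xHis 1, 6xHis 2, FLAG 1 and FLAG 2. HSPH1, a chaperone of the HSP110 family, held the next 2, with no histone peak at either in any list. Their folds were 7.42, 11.9, 7.23 and 8.19 (chr13:31149695-31151147) and 9.97, 8.66, 10.3 and 7.67 (chr13:31141908-31143070). Others of the strongest 8 lay in COPS5, EIF4A2, MTHFD1L, TRA2B and OSR2. Those in EIF4A2 and TRA2B were 9829 and 11207 bp wide. The COPS5, MTHFD1L and OSR2 sites held a control MLL4 peak although none was called in FOXD2 cells. These peaks had rank percentiles of 48.4 (COPS5), 76.0 and 71.7 (MTHFD1L) and 39.4 and 34.6 (OSR2) in the control lists. Of all tag sites without MLL4, 86.1% held no control MLL4 peak.

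MLL4 sites without tag were nearest to 1213 genes (6.07%). The strongest lay inside NIBAN2 (chr9:127573888-127575146), with folds of 18.5 and 27.7 in MLL4 1 and MLL4 2 and 12.1 and 13.5 in the control lists. Next came sites 16.4 kb from ACBD3, a Golgi protein, with 18.9 and 29.9, and 5.77 kb from JUP, the junction protein plakoglobin, with 22.7 and 18.6. GNG7, TM4SF1, ECT2L, VIPR1 and BIRC7 completed the strongest 8, and all 8 were held by both control lists. GSE1 had the most sites, 8, followed by GNG7 and PLEC, a cytolinker, with 5 each, and by ARHGEF10L and BCL9L, a Wnt coactivator, with 4 each. Another 3 genes, IER2, SLC39A11 and TNS4, also had 4.

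The classes overlapped in part at the level of genes. Of the 310 genes with a co-occupied site, 126 also had a tag site without MLL4, which is 40.6% of the first list and 5.14% of the second. With an MLL4 site without tag there were 52, which is 16.8% and 4.29%. Over all protein-coding genes, 12.3% had a tag site without MLL4, 6.07% an MLL4 site without tag and 1.55% a co-occupied site. A gene can hold several sites.

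The genes of the proteins studied were looked at next. FOXD2 itself had no peak in any tag list, and 1 peak in MLL4 1 and in control MLL4 2. KMT2D had no tag peak and 1 peak in each of the same MLL4 lists. KDM6A had 1 peak in 6xHis 1 and in FLAG 2 and no MLL4 peak. Of 10 genes of the MLL3 and MLL4 complex, 0 had a co-occupied site and 3 had a tag site without MLL4: RBBP5, a shared core subunit, with 3 sites, and PAXIP1 and DPY30 with 1 each. Over all protein-coding genes, 1.55% had a co-occupied site, 12.3% a tag site without MLL4 and 6.07% an MLL4 site without tag, the background for this and the following lists. In these lists a gene has a site if it is the nearest gene within 100 kb, so the site can lie outside it. The co-occupied sites of MED13 and ID3, for example, lay 27.6 and 17.7 kb away. Of 8 genes of other H3K4 methyltransferases or their partners, 0 had a co-occupied site. A tag site without MLL4 was found for 3 (KMT2A, MEN1, SETD1B) and an MLL4 site without tag for 3 (KMT2A, SETD1A, SETD1B). Of 29 forkhead genes 1, FOXL1, had a co-occupied site, 2 (FOXK2, FOXD3) a tag site without MLL4 and 1, FOXP1, an MLL4 site without tag.

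Splicing, chaperone, coactivator and ribosomal gene lists were met mostly by tag sites without MLL4. Of 25 hnRNP and SR splicing genes, 20 had such a site, against 12.3% of all genes, while 1, HNRNPD, had a co-occupied site and 0 an MLL4 site without tag. TRA2B had 4, HNRNPH1 and HNRNPA2B1 had 2 each. Of 25 heat shock and chaperone genes 18 had such a site, with 8 at HSPH1, 7 at HSPA9, 5 at HSPD1 and 2 at DNAJA1, and 1 each had a site of the other classes (HSP90AA1 co-occupied, HSPB1 with MLL4 alone). Of 20 coactivator and Mediator genes the counts were 9, with MED13, MED13L with 8 and CREBBP with 4, against 1 co-occupied (MED13) and 1 with MLL4 alone (SMARCA4). Of 30 ribosomal protein genes 8 had a tag site without MLL4, among them RPS3, RPS12, RPL11 and RPL4, 2 (RPL13, RPL3) an MLL4 site without tag and 0 a co-occupied site. These lists were drawn up with earlier results of these data known and are described by their counts alone.

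Signalling and epithelial lists had members in each class, to be read against 1.55% of all genes with a co-occupied site, 12.3% with a tag site without MLL4 and 6.07% with an MLL4 site without tag. Of 20 p53 targets 1, PLK3, had a co-occupied site, with summits 57 to 117 bp apart and no H3K4me3. A tag site without MLL4 was found at 9, with PPM1D at 11 sites and TNFRSF10B at 4. An MLL4 site without tag was found at 3 (DDB2, BBC3 and, 32.7 kb away, CDKN1A). Of 24 genes of the TGF-beta and BMP pathway, 3 had a co-occupied site: SMURF2, a ubiquitin ligase of the receptors, with 2, SMAD3, a signal transducer, and ID3, a target. A tag site without MLL4 was found at 8 and an MLL4 site without tag at 6. At SMURF2 the tag and MLL4 summits lay 577 to 689 and 530 to 735 bp apart, and at ID3 1 to 228 bp.

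Against the same background, 1 of 20 epithelial junction and keratin genes, CDH1, the epithelial cadherin, had a co-occupied site, 3 (CLDN3, EPCAM, TJP1) a tag site without MLL4 and 6, among them JUP, CTNND1, KRT8 and TJP1, an MLL4 site without tag. The CDH1 site lay inside the gene (chr16:68755776-68757657), with folds of 6.72, 6.29, 7.05 and 8.67 in 6xHis 1, 6xHis 2, FLAG 1 and FLAG 2 and 7.19 and 4.75 in MLL4 1 and MLL4 2. Control MLL4 1 had no peak there and control MLL4 2 had one, of fold 5.54. Of 20 Wnt targets 1, EPHB2, an intestinal ephrin receptor, had a co-occupied site. A tag site without MLL4 was found for 4 (MYC with 5, CD44, RNF43, DKK1), and the strongest MYC site lay 88.3 kb from the gene. An MLL4 site without tag was found for 6, among them EPHB2, RNF43, EPHB3 and NOTUM. Of 12 epithelial and colon markers the counts were 1, 2 and 2, of 6 blood markers 0 in each class, of 6 fibroblast and endothelial markers 0, 1 and 3, and of 6 neural markers 0, 0 and 1, where all genes stand at 1.55%, 12.3% and 6.07%.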

How the data were processed

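Tagged FOXD2, MLL4 and histone marks were mapped by ChIP-seq in HCT116, the tags and MLL4 from crosslinked, sonicated chromatin and histone marks from native MNase-digested chromatin, per the labels' protocols. Tools named in the submitters' processing notes are MACS2 2.2.7.1, Bowtie2 2.3.4.1, cutadapt 3.4, bedtools and Picard, with hg38 as the build. Each library has its own narrowPeak list, as deposited by the authors. Column 7 of each deposited list is the peak's fold enrichment, a ratio, columns 8 and 9 are −log10 of its p-value and q-value, and column 10 its summit. No deposited peak had a q above 0.01. Fold and q are the authors' values and served to describe or rank peaks within a list. In the alternatives with a stricter q, equal list length or peaks of 200 bp, they also decided which peaks were kept. The background library of each list and the read depth are not given in the sources used here.

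Peaks outside chromosomes 1 to 22 and X, 1 to 35 per list, were dropped. Lists were merged with a gap of 0 bp, and 1 bp of overlap counted. Genes are the nearest of 19970 RefSeq protein-coding genes (GRCh38.p14) within 100 kb. Gene starts and promoter sequences were known for 15811 of them, none on chromosome 8. Lists were compared by exact sign-flip and permutation tests over libraries. The named genes are FOXD2, KMT2D and KDM6A, the 10, 8 and 8 strongest sites of the 3 classes by rank sum, the 5 genes with most sites of each, and the strongest members, at most 4, of each gene list and class. Members, lists and tests were chosen with earlier results of these data known. Alternatives were a stricter q, equal list length, other overlaps, gaps, peak widths and definitions, and each library left out. Steps were tested on simulated lists. Python 3.11.15, numpy 2.4.6, pandas 2.3.3, scipy 1.17.1 and matplotlib 3.10.9 were used.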

Additional observations from a re-analysis of the deposited data

Results flagged for a closer look

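Of 20 values compared over the 4 tag lists, 3 had 1 list so far from the others that the gap took up more of the range than the 95% critical value of Dixon's test for 4 samples. It was FLAG 2 each time. In FLAG 2, 3.52% of peaks overlapped both MLL4 lists, against 1.56% to 1.83% in the other tag lists, and 51.2% of peaks lay over H3K4me1 in both lists. Its peaks without MLL4 had a median rank of 46.6. About 1 in 20 groups passes this value by chance, and the 20 values share the same peaks.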

How the results depend on the processing

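Of 126 recomputed results 12 could not differ from the reported value by construction. Of the other 114, 97 kept their direction or stayed within their error. The share of tag sites that were co-occupied, 6.58%, was 5.04% (97 sites) with −log10 q of 5 or more, 4.53% (181 sites) at equal list length, 5.18% (100 sites) with peaks of 200 bp, 4.53% (615 sites) with tag sites of at least 3 lists, and 19.7% with MLL4 in at least 1 list. Leaving out 1 list gave 4.57% (without FLAG 2) to 17.3% (without MLL4 2, so that 1 MLL4 list was enough). The mean summit distance, 220 bp, was 106 bp with peaks of 200 bp and 259 bp with MLL4 in at least 1 list. Without 1 list it was 198 to 314 bp. The difference in gene starts, 2.54 points, was -2.69 with −log10 q of 5 or more and -0.13 at equal list length (0.48 to 19.2 without 1 list). It was 1.38 points with either end of any gene, added after seeing the data. The H3K4me3 difference at MLL4 peaks, 16.3 points, was -3.11 at equal list length, -4.68 with peaks of 200 bp and -1.21 to 33.9 without 1 list. The cause was not tested. The H3K4me3 difference at tag peaks stayed at 35.7 to 55.6 points, and the mean rank differences kept their direction under these settings. With the replicate block, the MLL4 difference at tag sites was -7.36 points (exact p = 0.5), and the shared numbers are not known to pair the libraries. Width cannot be recomputed with peaks of 1 width. Gene-list members with a co-occupied site numbered 10, and 8 within 20 kb.

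Limits are the missing read depth, 1 H3K4me3 library per group, tags and MLL4 mapped in different cells, and no tag library from untagged cells analysed here. No test over 4 or 2 lists can reach 0.05.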

Other observations

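Other genes, chosen after their values were seen, held more tag peaks than MLL4 peaks. PCDH7, a protocadherin (hg38, chromosome 4, 30720369 to 31146800), held 59, 30, 39 and 18 peaks of 6xHis 1, 6xHis 2, FLAG 1 and FLAG 2, and 1 peak in each MLL4 list of FOXD2 cells. The control MLL4 lists had 4 and 2 peaks there. KMT2C, the paralog of KMT2D (chromosome 7, 152134925 to 152436003), held 7, 6, 6 and 4 tag peaks and no MLL4 peak of FOXD2 cells. These counts were not set against the length of the genes or of the lists.

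The promoter windows met by each class differed in base composition. The median GC content was 57.7% in the 413 windows at tag sites without MLL4, 61.2% in the 34 at co-occupied sites and 68.3% in the 113 at MLL4 sites without tag. Over all windows it was 62.7%, and over those with H3K4me3 66.3%. These values are a description without a test.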
